A study of Mus musculus with 14 samples.

Results

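The 10 genes described here are Smad2, Smad3, Smad4, Smad6, Smad7, Ski, Skil, Tgif1, Pmepa1 and Bambi, which encode the intracellular Smads of the TGF-β pathway and inhibitors that act at its receptors or on its nuclear complexes. They were taken by gene symbol from both deposited expression tables, with no threshold on their values, and all 10 were found among the 23284 genes of each table. The choice of these genes was made with earlier results of these data known. The cells are EpH4, a mouse mammary gland epithelial line, and EpRas, the line derived from it by transformation with H-Ras. Each line was left untreated or was given TGF-β3 at 1 ng/ml for 48 h, with 2 libraries for each of these 4 groups. In addition, EpRas cells carrying siNC, a negative control siRNA, or either of 2 siRNA pairs against the ETS transcription factors Etv4 and Etv5 were sequenced without and with TGF-β, with 1 library for each of these 6 conditions. EpH4 cells were grown in 10% serum and EpRas cells in 4%, so line and serum cannot be told apart. EpRas stands for H-Ras transformation through a single derived line. The labels number the 2 libraries of a group and do not say whether they came from separate cultures. In a legend, the study calls the untransfected RNA-seq biological replicates. P-values for the untransfected groups set a difference against the spread between these libraries. In the siRNA fits the spread comes from libraries of unlike conditions.

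TGF-β binds a receptor complex that phosphorylates Smad2 and Smad3. These join Smad4, enter the nucleus and act on target genes, often at short GTCT-containing DNA elements. Among the genes the pathway commonly raises are its own inhibitors, in particular Smad7, Skil and Pmepa1, and in mammary epithelium the pathway is known for growth arrest and for epithelial-mesenchymal transition.

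RefSeq promoter windows (GRCm38.p6, 250 bases before to 50 after a start site) were at hand for 4 members, Smad3, Smad6, Ski and Tgif1, the last with 5 alternative windows. The windows were searched on both strands for GTCTAGAC, the palindrome of the Smad element, for CAGACA, for the GC-rich Smad element GCCGNCGC and for the ETS element CCGGAAGT. Of all 32851 windows of the same length, 0.213% hold GTCTAGAC, 21.0% CAGACA, 9.76% GCCGNCGC and 3.89% CCGGAAGT. Given here from 250 bases before to 4 bases after the start site, 5′ to 3′, are Smad6 (chr9:64022056-64022309, minus strand), since its level differed most between the lines under TGF-β, Ski (chr4:155222532-155222785, minus strand), since its level differed between the untreated lines, and the most upstream window of Tgif1 (chr17:70853529-70853782, minus strand), the member with the highest untreated level in EpH4. Capitals mark matches to the 4 elements.
Smad6: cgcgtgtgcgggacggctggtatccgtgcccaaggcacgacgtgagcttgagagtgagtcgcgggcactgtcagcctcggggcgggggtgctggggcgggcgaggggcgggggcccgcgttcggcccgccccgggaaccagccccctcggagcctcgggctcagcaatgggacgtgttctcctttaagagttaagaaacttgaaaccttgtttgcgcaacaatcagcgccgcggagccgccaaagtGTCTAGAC
Ski: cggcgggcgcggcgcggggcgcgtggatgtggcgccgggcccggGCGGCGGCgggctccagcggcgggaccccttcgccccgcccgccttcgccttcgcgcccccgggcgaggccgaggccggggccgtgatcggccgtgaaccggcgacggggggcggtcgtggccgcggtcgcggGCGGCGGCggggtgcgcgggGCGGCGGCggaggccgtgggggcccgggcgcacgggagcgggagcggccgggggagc
Tgif1: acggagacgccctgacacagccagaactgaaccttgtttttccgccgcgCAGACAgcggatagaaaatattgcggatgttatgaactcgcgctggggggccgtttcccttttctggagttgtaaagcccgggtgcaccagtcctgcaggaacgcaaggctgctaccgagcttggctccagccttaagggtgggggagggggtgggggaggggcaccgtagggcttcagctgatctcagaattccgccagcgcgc
In Smad6 the palindrome begins 4 bases before the start site and so spans it. Ski holds 3 matches to the GC-rich element, all on the reverse strand, which begin 206, 73 and 53 bases before the start. The upstream Tgif1 window holds CAGACA 201 bases before the start. The next Tgif1 window holds it on the reverse strand, 60 bases before its start, and the other 3 hold none of the elements. The Smad3 window holds none of the 4 elements, and CCGGAAGT is in none of the 8 windows of these genes. A match is a description of the sequence and not evidence of binding.

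Values are FPKM, fragment counts scaled for transcript length and library size, as calculated by the authors for each library. For untransfected groups, limma was applied to log2(FPKM + 1), and all 8 libraries gave the spread. The Benjamini-Hochberg adjustment covered 9100 genes, those with a maximum of 5 FPKM or more over the untransfected libraries. Log2 fold changes are on that scale, which pulls low genes towards 0, and are given with their standard error (SE). Bambi did not reach 5 FPKM and was not tested, so counts below refer to 9 members. Smad2 and Smad6 were near the limit, with maxima of 6.27 and 9.12 FPKM. Relative depth, read from the smallest steps in FPKM, differed up to 2.23-fold among the untransfected libraries and up to 1.74-fold among the siRNA libraries. The libraries carried the epithelial markers Epcam, Krt8, Krt18, Krt14 and Cdh1, with Krt5 at most 0.0856 FPKM. Summed within each untransfected library, 6 epithelial markers stood at 1577 to 3838 FPKM, 5 fibroblast markers at 1.62 to 11.3, 5 haematopoietic markers at 0.293 to 7.13 and 4 endothelial markers at 0 to 0.481 FPKM. The summed fibroblast markers, of which Dcn, Lum and Col6a3 stayed below 1 FPKM, were lowest in untreated EpH4 cells (1.62 and 2.00 FPKM, against 6.75 to 11.3 FPKM in the other groups). The summed haematopoietic markers, of which only Cd68 reached 1 FPKM, were at 0.293 to 2.75 FPKM in EpH4 and 3.81 to 7.13 FPKM in EpRas. The part of these markers in the differences below was not tested. In such bulk samples a smaller number of expressing cells and less RNA per cell cannot be told apart.

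The members spanned a wide range of abundance. Tgif1 and Pmepa1 were the most abundant in all 4 untransfected groups, and Smad3 and Smad4 had the next highest means, with Smad6, Smad2 and Bambi at the low end. In untreated EpRas cells the libraries of Pmepa1 and Tgif1 overlapped (75.3 and 99.9 against 79.4 and 74.6 FPKM), as did those of Smad7 and Skil and those of Smad6 and Smad2, so these neighbours were not in a set order. In EpH4 with TGF-β, neighbours overlapped from Smad4 over Skil and Smad7 down to Ski, and 1 Smad7 library (21.8 FPKM) reached the Smad3 libraries. With TGF-β, Pmepa1 was first in both lines, and its lowest library lay above the highest of Tgif1 (299 against 123 FPKM in EpH4, 172 against 106 FPKM in EpRas). The level of Smad3 was 3.82 to 7.80 times that of Smad2 over the 8 untransfected libraries, with a median of 4.95.

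**Figure D1:**
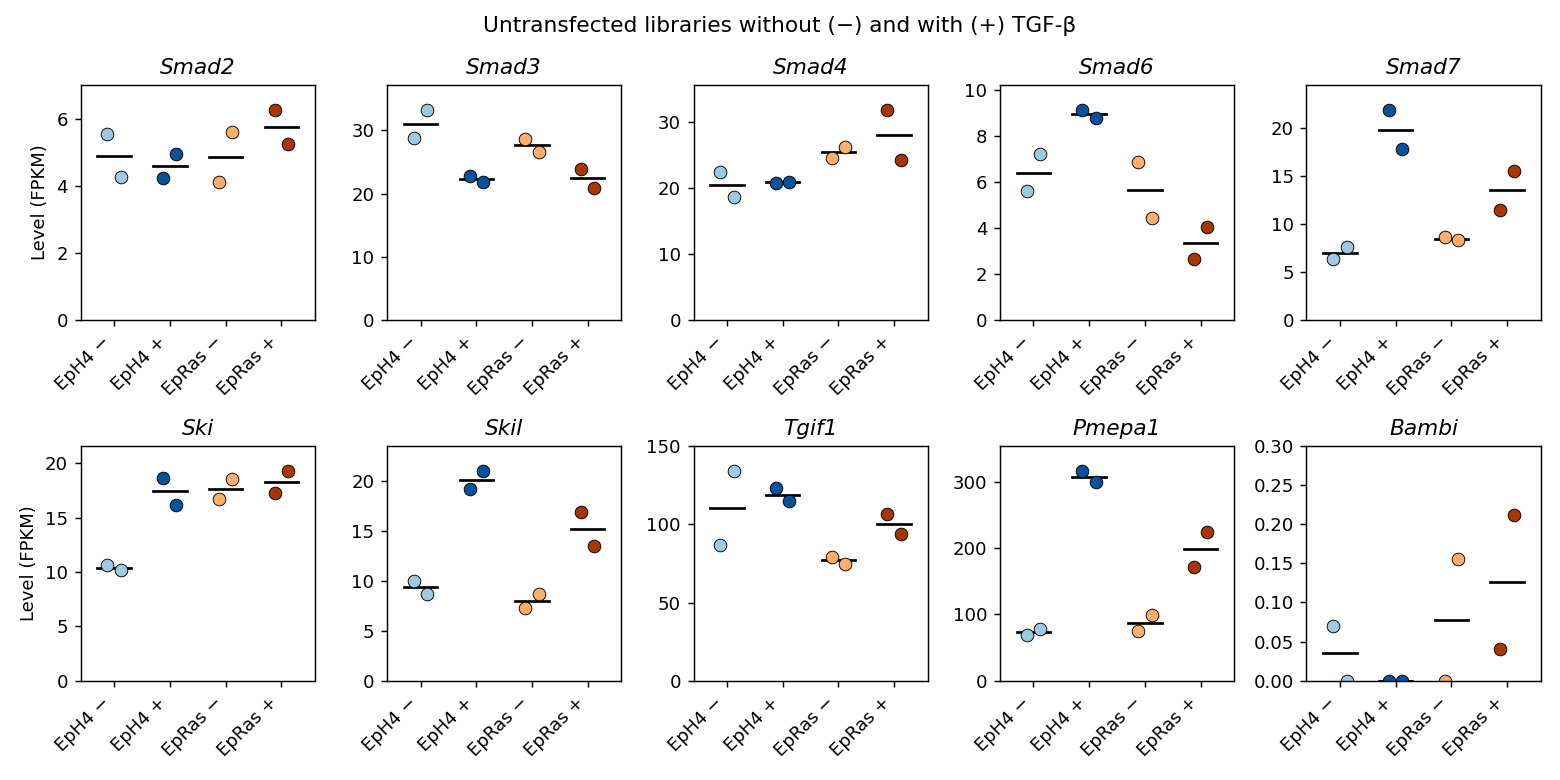
Levels of the 10 genes in the 8 untransfected libraries. Each panel shows 1 gene, with FPKM on a linear axis from 0, a point for each library and a bar for the mean of the 2 libraries of a group without (−) or with (+) TGF-β. The points of Pmepa1, Smad7 and Skil lie higher with TGF-β in both lines, although Smad7 did not pass the test in EpRas, Ski is low only in untreated EpH4, the Smad6 points with TGF-β lie above the untreated ones in EpH4 and below them in EpRas although neither change passed the test, and Bambi stays at or below 0.211 FPKM.

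The first question was how the pathway's own components responded to TGF-β in each line. In EpH4 cells, 4 of 9 tested members rose and none fell at an adjusted p under 0.05, against 9.40% of all tested genes called in either direction (6.48% higher and 2.91% lower). They were Pmepa1, Smad7, Skil and Ski. In EpRas cells 2 of 9 rose, Pmepa1 and Skil, against 3.82% of all tested genes called (1.90% higher and 1.92% lower). The 2 EpRas libraries with TGF-β differed more than those of the other groups, with a median SD over the tested genes of 0.214 on the log2(FPKM + 1) scale against 0.0914 to 0.147, and the part of this in the counts was not tested. The signal transducers Smad2, Smad3 and Smad4 were called in neither line with limma, while Smad3 in EpH4 passed, as lower, in the unadjusted Tukey-Kramer test on FPKM.

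Of the receptor-regulated Smads, which carry the signal from the receptor, Smad2 (chromosome 18 from 76241580 to 76310963, plus strand) was at 5.56 and 4.26 FPKM in untreated EpH4, 4.25 and 4.97 FPKM in EpH4 with TGF-β, 4.12 and 5.61 FPKM in untreated EpRas and 6.27 and 5.25 FPKM in EpRas with TGF-β. In each line the treated and untreated libraries overlapped, and the limma log2 fold change was −0.07 (95% interval −0.53 to 0.40) in EpH4 and 0.21 (−0.25 to 0.68) in EpRas. Smad3 (chromosome 9 from 63646767 to 63757994, minus strand) went from 28.7 and 33.2 FPKM to 22.7 and 21.8 FPKM in EpH4, and from 28.7 and 26.6 FPKM to 23.9 and 20.8 FPKM in EpRas. Both treated libraries were thus below both untreated libraries in each line, but neither change passed the test, with a log2 fold change of −0.46 (SE 0.16, adjusted p = 0.125, limma) in EpH4 and −0.29 (SE 0.16, adjusted p = 0.423, limma) in EpRas. Groups without overlap were common, at 60.6% of tested genes for TGF-β in EpH4 and 39.4% in EpRas. Smad4 (chromosome 18 from 73639009 to 73703780, minus strand), the common partner of both, was at 22.4 and 18.7 FPKM without and 20.8 and 21.0 FPKM with TGF-β in EpH4. In EpRas it was at 24.7 and 26.3 FPKM without and 31.9 and 24.3 FPKM with TGF-β. The libraries overlapped in each line, with log2 fold changes of 0.03 (95% interval −0.39 to 0.45) and 0.12 (−0.30 to 0.54).

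Smad7 (chromosome 18 from 75367529 to 75395935, plus strand) is the inhibitory Smad that brings ubiquitin ligases to the TGF-β receptor. In EpH4 it rose from 6.31 and 7.58 FPKM to 21.8 and 17.8 FPKM, a mean 2.85 times as high. The 4 libraries rest on 157 to 475 reads each and did not overlap, and the log2 fold change was 1.39 (SE 0.20, adjusted p = 0.00578, limma). In EpRas the values were 8.64 and 8.29 FPKM without and 11.4 and 15.5 FPKM with TGF-β. Both treated libraries were again the higher ones, but the log2 fold change of 0.60 (SE 0.20, adjusted p = 0.190, limma) did not pass.

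Smad6 (chromosome 9 from 63953076 to 64022059, minus strand), the other inhibitory Smad, is best known for restraining the BMP branch of the pathway. It was at 5.59 and 7.21 FPKM in untreated and 9.12 and 8.76 FPKM in treated EpH4, but at 6.86 and 4.45 FPKM in untreated and 2.65 and 4.06 FPKM in treated EpRas. Both treated libraries therefore lay above the untreated ones in EpH4 and below them in EpRas, and 4.63% of all tested genes had groups that separated in opposite directions in the 2 lines. Neither change passed by itself, at a log2 fold change of 0.43 (SE 0.24, adjusted p = 0.335, limma) in EpH4 and −0.61 (SE 0.24, adjusted p = 0.286, limma) in EpRas. These are low values, with 37 to 159 reads in a library.

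The nuclear corepressors Ski and Skil (also called SnoN) bind Smad complexes on DNA and recruit histone deacetylases. Skil (chromosome 3 from 31095058 to 31122577, plus strand) rose in EpH4 from 9.99 and 8.74 FPKM to 19.2 and 21.0 FPKM, and in EpRas from 7.32 and 8.74 FPKM to 16.9 and 13.5 FPKM. No treated library overlapped an untreated one of its line. The log2 fold change was 1.03 (SE 0.18, adjusted p = 0.0129, limma) in EpH4 and 0.84 (SE 0.18, adjusted p = 0.0472, limma) in EpRas. The EpRas call was lost with other pseudocounts, a lower filter, median scaling or the replicate number as a block (adjusted p = 0.0507 to 0.109, limma). Ski (chromosome 4 from 155154075 to 155222592, minus strand) rose in EpH4 from 10.6 and 10.2 FPKM to 18.7 and 16.1 FPKM, a mean 1.67 times as high. In EpRas it was at 16.7 and 18.5 FPKM without and 17.2 and 19.3 FPKM with TGF-β. The EpH4 groups did not overlap, with a log2 fold change of 0.69 (SE 0.15, adjusted p = 0.0343, limma), while the EpRas groups did overlap, with a log2 fold change of 0.05 (95% interval −0.31 to 0.41).

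Tgif1 (chromosome 17 from 70844205 to 70853546, minus strand), a homeodomain corepressor of Smads, was at 87.1 and 134 FPKM in untreated EpH4, where the 2 libraries differed more than in any other group for this gene, and at 123 and 115 FPKM with TGF-β. In EpRas it was at 79.4 and 74.6 FPKM without and 106 and 93.9 FPKM with TGF-β. The EpRas groups did not overlap, but the log2 fold change of 0.37 (SE 0.22, adjusted p = 0.473, limma) did not pass, and that in EpH4 was 0.14 (95% interval −0.37 to 0.65).

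The membrane inhibitors were at opposite ends of the range. Pmepa1 (chromosome 2 from 173224458 to 173276533, minus strand) encodes a membrane-anchored protein that binds receptor-regulated Smads and keeps them from the receptor. In EpH4 it rose from 68.4 and 77.7 FPKM to 317 and 299 FPKM, and in EpRas from 75.3 and 99.9 FPKM to 172 and 225 FPKM. The mean was 4.22 times as high in EpH4 and 2.27 times as high in EpRas, with no overlap in either line. It had the largest log2 fold change of the 9 members in both lines, 2.06 (SE 0.20, adjusted p = 0.00101, limma) in EpH4 and 1.17 (SE 0.20, adjusted p = 0.0242, limma) in EpRas. Bambi (chromosome 18 from 3507923 to 3516404, plus strand), a pseudoreceptor without a kinase domain, was listed at 0 in both libraries of EpH4 with TGF-β and in 1 library each of untreated EpH4 and untreated EpRas. Its other values were 0.0704 FPKM in untreated EpH4, 0.155 FPKM in untreated EpRas and 0.0410 and 0.211 FPKM in EpRas with TGF-β. With at most 5 reads in a library, no difference in Bambi was detectable at this depth.

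**Figure D2:**
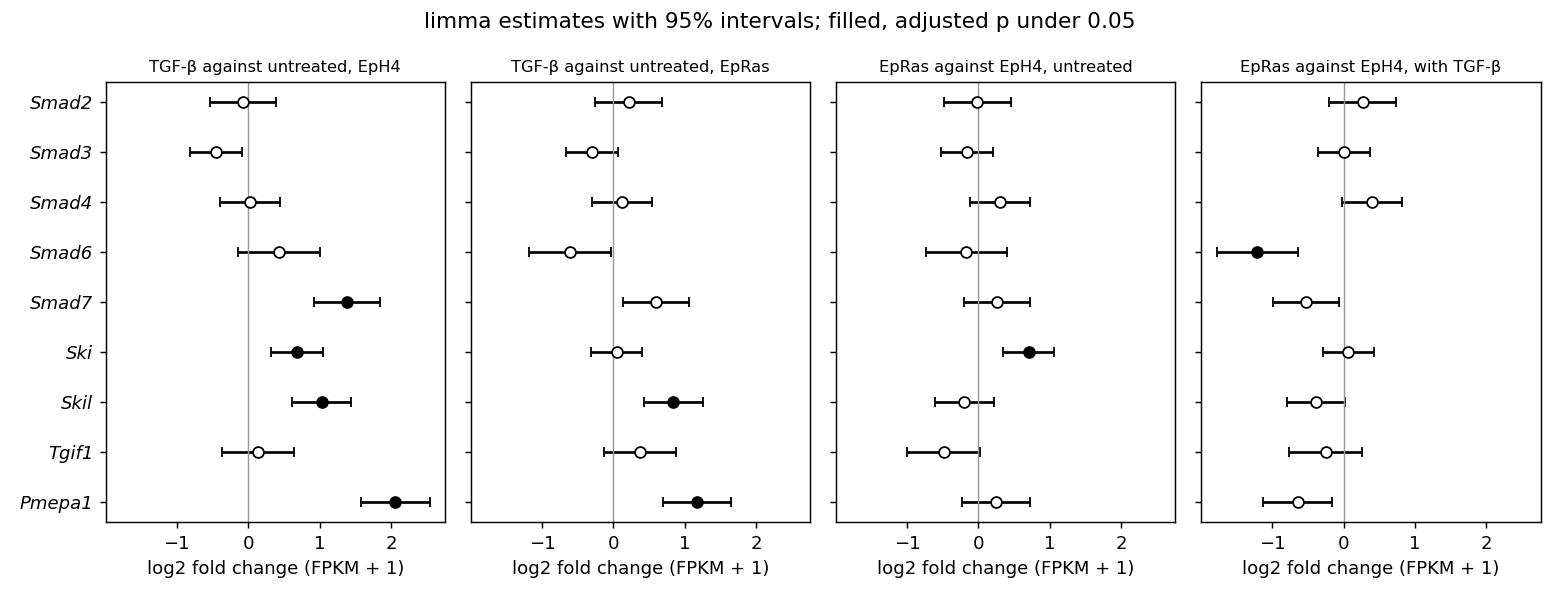
Log2 fold changes, on the log2(FPKM + 1) scale, of the 9 tested genes in 4 comparisons of untransfected groups. Points are limma estimates, bars are 95% intervals and filled points have an adjusted p under 0.05. Pmepa1, Smad7, Skil and Ski are filled for TGF-β in EpH4, Pmepa1 and Skil for TGF-β in EpRas, Ski for the untreated lines and Smad6 for the treated lines.

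The calls rested on few libraries. In EpH4, Pmepa1 kept an adjusted p of 0.0187 or less with any 1 of the 8 libraries left out. Smad7 lost its call without EpH4 TGF-β replicate 1 (adjusted p = 0.0712, limma), Skil without any 1 of the 4 EpH4 libraries (0.0543 to 0.118), and Ski without any 1 of these (0.116 to 0.262) or of the untreated EpRas libraries (0.0602). In EpRas, Pmepa1 lost its call without any library other than EpRas TGF-β replicate 1 (adjusted p = 0.0505 to 0.167, limma), and Skil without any library other than EpRas TGF-β replicate 2 (0.0829 to 0.273). Fitted on the 4 EpRas libraries alone, both were lost (adjusted p = 0.195 and 0.252, limma).

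Whether the response itself differed between the lines was tested as the difference of the 2 effects, EpRas minus EpH4. None of the 9 members passed with limma, against 0.802% of all tested genes, and 4 of 9 had an unadjusted p under 0.05, against 10.9% of all tested genes. Of all tested genes, 0.176% passed with a higher and 0.626% with a lower response in EpRas. The difference was −0.89 (SE 0.29, adjusted p = 0.321, limma) for Pmepa1, −1.04 (SE 0.34, adjusted p = 0.327, limma) for Smad6, −0.64 (SE 0.22, adjusted p = 0.343, limma) for Ski and −0.79 (SE 0.28, adjusted p = 0.361, limma) for Smad7. Skil, called in both lines, differed by −0.19 (95% interval −0.77 to 0.40). So the smaller number of calls in EpRas does not show a smaller response there.

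The next question was where the lines differed at a given treatment. The comparisons share libraries with those above, and the values are given side by side only. Without TGF-β, 1 of 9 members was called, against 17.6% of all tested genes (8.45% higher and 9.11% lower in EpRas), and the same 1 of 9 had an unadjusted p under 0.05, against 32.6%. This was Ski, at 10.6 and 10.2 FPKM in EpH4 and 16.7 and 18.5 FPKM in EpRas, a mean 1.69 times as high (log2 fold change 0.70, SE 0.15, adjusted p = 0.0205, limma). It lost this call without any 1 of the 4 untreated libraries (adjusted p = 0.0675 to 0.105, limma). Untreated EpRas was thus at the level EpH4 reached with TGF-β (18.7 and 16.1 FPKM). Of the others, 2 more were higher in both EpRas libraries, Smad4 and Smad7, and 2 were lower in both, Smad3 and Tgif1. For Smad3 this was close to a tie, with the highest EpRas library at 28.70 FPKM and the lowest EpH4 library at 28.74 FPKM. Groups did not overlap for 61.0% of all tested genes. With TGF-β, 1 of 9 was called, against 21.3% of all tested genes (8.92% higher and 12.3% lower in EpRas), and 3 of 9 had an unadjusted p under 0.05, against 35.8%. Smad6 was at 9.12 and 8.76 FPKM in EpH4 and at 2.65 and 4.06 FPKM in EpRas, a mean 2.67 times as high in EpH4 (log2 fold change −1.21, SE 0.24, adjusted p = 0.0118, limma). It lost the call without EpH4 TGF-β replicate 1 (adjusted p = 0.0851, limma), EpH4 TGF-β replicate 2 (0.0718) or EpRas TGF-β replicate 1 (0.0577). Pmepa1 at −0.64 (SE 0.20, adjusted p = 0.0633, limma) and Smad7 at −0.53 (SE 0.20, adjusted p = 0.0979, limma) were lower in both EpRas libraries without passing. In all, 2 members were higher and 5 lower in both treated EpRas libraries, and groups did not overlap for 63.0% of all tested genes. Without EpRas TGF-β replicate 2, Pmepa1 and Smad7 both passed (adjusted p = 0.0385 and 0.0402, limma).

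The members stand in a pathway of which 67 further genes were listed, and 54 of these were tested. In EpH4, 16 of the 54 rose and 3 fell with TGF-β, where 6.48% of all tested genes rose and 2.91% fell. In EpRas 7 rose and 4 fell, where 1.90% of all tested genes rose and 1.92% fell. Of 17 tested targets known to be raised by TGF-β, 13 rose in EpH4 and 6 in EpRas, and none fell in either line. Itgb6, among the 13, reached 5 FPKM only in EpH4 TGF-β replicate 1 (5.86 FPKM), so it was tested because it was high there. For 1 of the 17, Col1a1, the difference in response between the lines passed (−3.12, adjusted p = 0.00729, limma), so the counts do not show that the list responded less in EpRas. Col1a1 reached 5 FPKM only in EpH4 (18.7 to 224 FPKM, against 1.57 to 2.78 FPKM in EpRas), so it was tested because it was high there. The largest changes were those of Mmp9, a matrix metalloproteinase, and Ctgf, a matricellular protein. Ctgf had a log2 fold change of 4.18 (SE 0.20) in EpH4 and 2.58 (SE 0.20) in EpRas. Their list had a median log2 fold change of 1.20 in EpH4 and 0.61 in EpRas, against 0.43 and 0.21 for the 9 members and −0.02 and −0.02 for all tested genes. Of the 4 targets known to be lowered, Id2 fell in both lines, by 1.39 on the log2 scale in EpH4 and by 2.06 in EpRas, and Id1 fell by 1.45 in EpRas. Myc, also of the 4, passed in neither line, at −0.37 in EpH4 and 0.44 in EpRas (adjusted p = 0.257 and 0.292, limma). With TGF-β, Myc was higher in EpRas than in EpH4 (0.61, SE 0.18, adjusted p = 0.0493, limma), where the other 3 were lower. Id1 and Id2 are inhibitors of basic helix-loop-helix factors.

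Upstream of the Smads, Tgfbr2, the type II receptor, fell with TGF-β in both lines, with a log2 fold change of −1.17 (SE 0.16, adjusted p = 0.00565, limma) in EpH4 and −0.82 (SE 0.16, adjusted p = 0.0412, limma) in EpRas. The ligand gene Tgfb2 rose in both, by 0.55 (SE 0.14) and 1.04 (SE 0.14), and Eng, a co-receptor, rose in EpH4 by 1.14 (SE 0.26). Tgfb2 reached 5 FPKM only in EpH4 with TGF-β (6.83 and 6.66 FPKM), so it was tested because it was high there. Between the untreated lines, Tgfbr2 (−1.14, SE 0.16), Tgfb2 (−1.81, SE 0.14) and Eng (−1.97, SE 0.26) were lower and the ligand gene Tgfb1 (0.98, SE 0.18) higher in EpRas. Both untreated groups of Tgfb2 were under 5 FPKM (4.25 and 4.36 FPKM in EpH4, 0.556 and 0.465 FPKM in EpRas). Dab2, an adaptor that links receptors to Smads, fell with TGF-β in both lines, by 1.20 (SE 0.15) in EpH4 and by 0.93 (SE 0.15) in EpRas. None of the 12 tested ubiquitin ligases, deubiquitinases and phosphatases of the pathway was called for TGF-β in either line, where 9.40% and 3.82% of all tested genes were. Of that list, 2 of 12 differed between the untreated lines, a share no larger than the 17.6% of all tested genes, and both are given as values. Smurf1, a ligase that works with Smad7 at the receptor, was lower in untreated EpRas than in untreated EpH4 (−0.94, SE 0.15). Nedd4l was higher (0.57, SE 0.15). It reached 5 FPKM only in EpRas (6.99 and 7.83 FPKM untreated, against 4.94 and 4.37 FPKM in untreated EpH4), so it was tested because it was high there. With TGF-β, 2 of the 12 were lower in EpRas, Smurf1 and Rnf111, against 12.3% of all tested genes. In that comparison 1 was higher, Uchl5, against 8.92%, and Nedd4l was not called (0.19, SE 0.15, adjusted p = 0.395, limma).

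**Figure D3:**
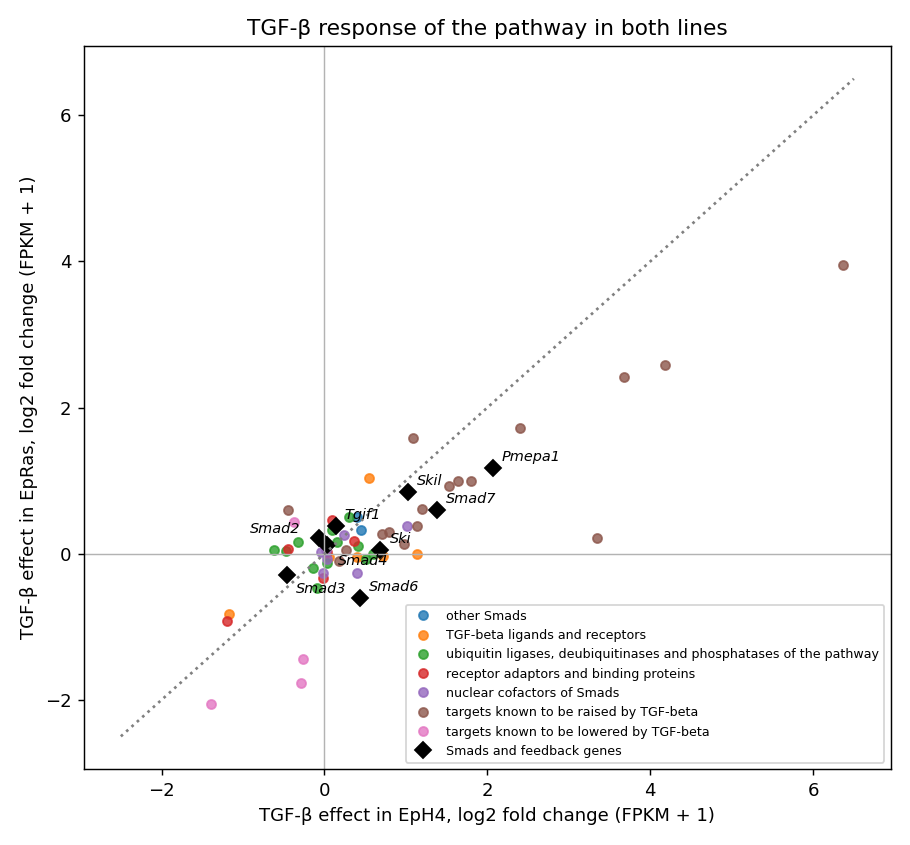
Effect of TGF-β in EpH4 (horizontal) and EpRas (vertical) as limma log2 fold changes on the log2(FPKM + 1) scale, with a point for each tested gene of the pathway lists (circles, coloured by list) and each of the 9 members (black diamonds). The dotted line marks equal effects. Pmepa1 (2.06 and 1.17), Smad7 (1.39 and 0.60), Ski (0.69 and 0.05) and Smad6 (0.43 and −0.61) lie below it.

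Likeness of pattern was measured as Pearson's r of log2(FPKM + 1) over the 8 untransfected libraries, which include the treated and untreated groups of both lines, and is a description only. The 3 genes most like Smad7 were Bmp1, Creb3 and Sfn (r = 0.984 to 0.987). For Skil they were Exoc3, Itga2 and Atp11a (r = 0.980 to 0.993), and for Pmepa1 Acsbg1, Gm11747 and Zc3h12a (r = 0.985 to 0.988).

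The siRNA libraries addressed whether the members depended on Etv4 and Etv5 in EpRas cells. Their values stand in a table of their own, from a separate Cuffdiff run, so tests stayed within the 6 libraries. The targeted genes were lower in the libraries labelled as knockdown than with siNC. Etv4 was at 57.4 and 64.3 FPKM with siNC (untreated and TGF-β), 11.6 and 12.6 FPKM with siRNA pair 1 and 27.9 and 18.9 FPKM with pair 2. Etv5 was at 8.85 and 5.34 FPKM with siNC, 1.61 and 1.24 FPKM with pair 1 and 1.26 and 1.20 FPKM with pair 2. In a secondary limma fit, where the spread comes from differences between unlike conditions, the log2 fold change with knockdown was −1.77 (SE 0.18, adjusted p = 0.0205) for Etv5 and −1.80 (SE 0.36, adjusted p = 0.0606) for Etv4, which did not pass. Etv5 reached 5 FPKM only in the siNC libraries, so it was tested because it was high there. Its adjusted p is therefore no check of the knockdown, which rests on the values above.

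TGF-β raised 3 of 9 tested members in these libraries, against 4.17% of 9094 genes called (2.62% higher and 1.55% lower), and 4 of 9 had an unadjusted p under 0.05, against 21.9%. They were Smad7, Skil and Pmepa1. Smad7 went from 12.3 to 28.4 FPKM with siNC, from 8.16 to 19.7 FPKM with pair 1 and from 9.44 to 17.6 FPKM with pair 2 (log2 fold change 1.05, SE 0.14, adjusted p = 0.0249, limma with 2 residual degrees of freedom). Skil went from 8.38 to 17.4 FPKM, from 7.23 to 23.1 FPKM and from 8.35 to 17.6 FPKM in the same order (1.17, SE 0.17, adjusted p = 0.0291, limma). Pmepa1 went from 93.5 to 167 FPKM, from 67.2 to 128 FPKM and from 119 to 288 FPKM (1.00, SE 0.15, adjusted p = 0.0309, limma). Each of these was higher with TGF-β under all 3 siRNAs, as was Tgif1, which went from 57.5 to 82.6 FPKM, from 55.6 to 94.0 FPKM and from 60.7 to 97.4 FPKM and did not pass (0.64, SE 0.13, adjusted p = 0.0633, limma), but did with a pseudocount of 5 FPKM (adjusted p = 0.0474, limma). Such a rise in all 3 was seen for 23.5% of tested genes, and a fall in all 3, which no tested member had, for 20.7%. All 3 calls were lost without either siRNA pair (adjusted p = 0.104 to 0.229, limma).

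Ski, Smad2, Smad3, Smad4 and Smad6 had no common direction with TGF-β. Ski went from 14.9 to 25.0 FPKM with siNC, a ratio of 1.68 (exact binomial 95% interval of the reads 1.53 to 1.85). It went from 19.9 to 17.8 FPKM with pair 1 (0.894, 0.819 to 0.977) and from 26.4 to 26.5 FPKM with pair 2 (1.00, 0.927 to 1.08). These intervals cover counting error only and not the variation between cultures, for which there is 1 library each. Smad3 went from 20.2 to 23.3 FPKM with siNC, from 16.4 to 16.5 FPKM with pair 1 and from 23.4 to 16.7 FPKM with pair 2. Smad2 lay between 4.42 and 5.92 FPKM and Smad4 between 24.5 and 29.8 FPKM over the 6 libraries, and neither was called. Bambi was at 0.0900 FPKM or less, with at most 4 reads.

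**Figure D4:**
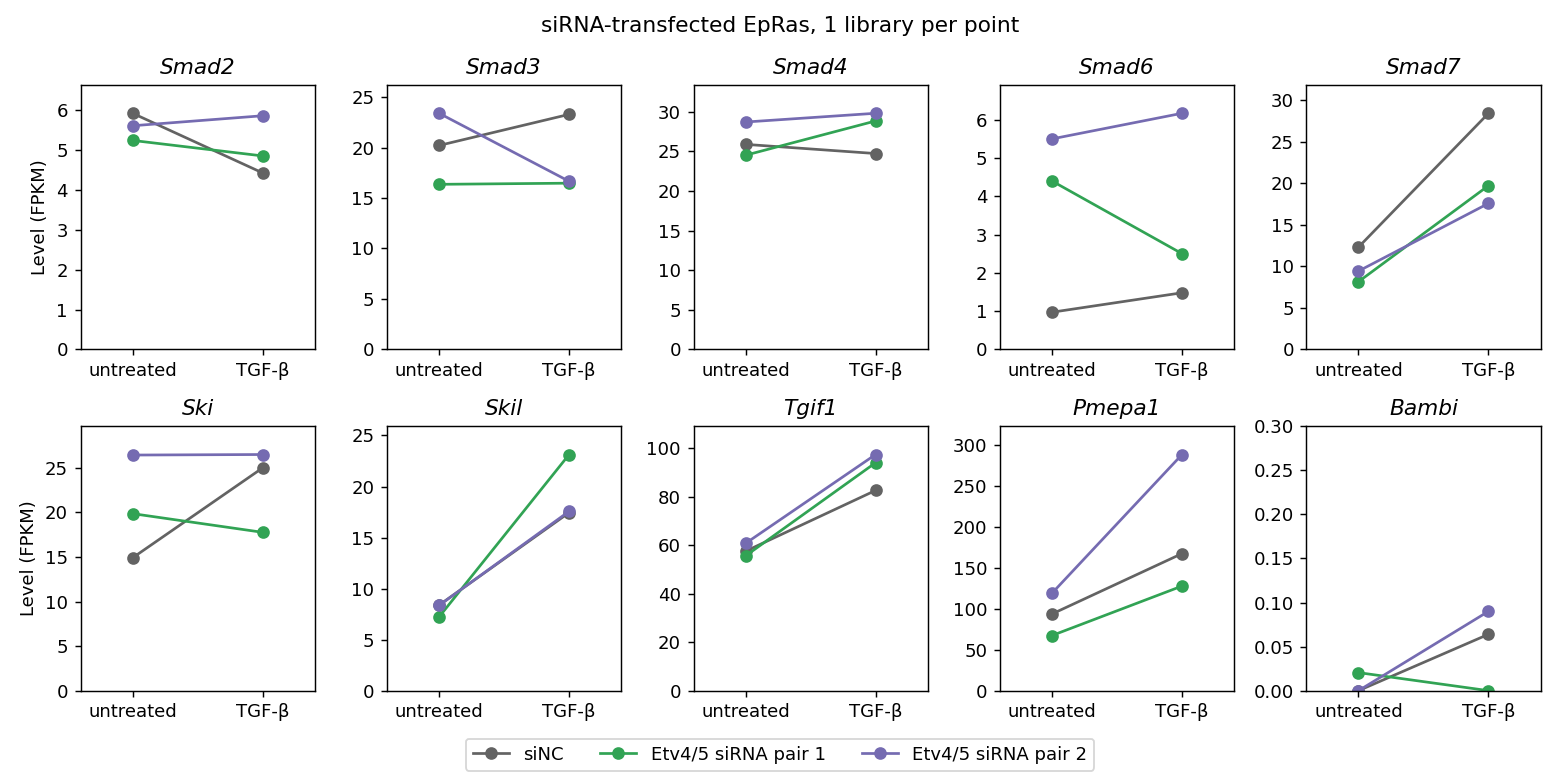
Levels of the 10 genes in the 6 libraries of siRNA-transfected EpRas cells, in FPKM on a linear axis from 0. Each point is 1 library, and lines join the untreated and TGF-β libraries of siNC (grey), siRNA pair 1 (green) and siRNA pair 2 (purple). The lines of Smad7, Skil, Tgif1 and Pmepa1 rise under every siRNA, the grey Smad6 points are the lowest (0.972 and 1.48 FPKM), and only the grey Ski line rises clearly (14.9 to 25.0 FPKM).

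For the knockdown, 0 of 9 members passed with limma, against 2.12% of tested genes (0.770% higher and 1.35% lower), and 2 of 9 had an unadjusted p under 0.05, against 22.7% of tested genes. They were Smad6 and Smad7, a share of the members no larger than that of all tested genes, and both are given as values. Smad6 was at 0.972 and 1.48 FPKM with siNC (untreated and TGF-β), at 4.40 and 2.50 FPKM with pair 1 and at 5.50 and 6.17 FPKM with pair 2. All 4 knockdown libraries lay above both siNC libraries, as did those of 15.8% of tested genes, and 23.9% were higher in each of the 4 matched comparisons. The log2 fold change was 1.30 (SE 0.32, adjusted p = 0.0912, limma with 3 residual degrees of freedom). The 5 fibroblast markers summed to 4.47 and 8.93 FPKM with siNC, 7.36 and 12.5 FPKM with pair 1 and 13.4 and 16.3 FPKM with pair 2, with Dcn, Lum and Col6a3 below 1 FPKM throughout. The 5 haematopoietic markers summed to 5.20 and 6.52 FPKM with siNC, 2.83 and 2.18 FPKM with pair 1 and 3.94 and 3.37 FPKM with pair 2. For the 4 endothelial markers the sums were 0.585 and 2.00 FPKM, 0.0262 and 0.0774 FPKM, and 0.0347 and 0.259 FPKM in the same order. The part of these markers in the Smad6 and Smad7 values was not tested. Smad6 reached 5 FPKM only in pair 2 libraries, so it was tested because it was high there. The siNC values rest on 20 and 53 reads, and the ratio to siNC was 4.53 (exact binomial 95% interval 2.81 to 7.67) for pair 1 and 5.66 (3.53 to 9.54) for pair 2 in untreated cells. With TGF-β it was 1.69 (1.17 to 2.46) for pair 1 and 4.17 (3.04 to 5.81) for pair 2. The pairs agree within counting error in untreated cells and differ by a ratio of 2.47 (1.85 to 3.31) with TGF-β. In the separate table of untransfected EpRas cells, Smad6 was at 2.65 to 6.86 FPKM, above the siNC libraries, a difference that was not tested.

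Smad7 was lower with both pairs, at 66.2% and 76.6% of siNC in untreated cells and 69.4% and 61.8% with TGF-β for pair 1 and pair 2 (log2 fold change −0.52, SE 0.15, adjusted p = 0.126, limma). In the separate table of untransfected EpRas cells, Smad7 was at 8.29 and 8.64 FPKM without and 11.4 and 15.5 FPKM with TGF-β, below siNC at the same treatment (12.3 and 28.4 FPKM), a difference that was not tested. A decrease in all 4 matched comparisons was seen for 21.1% of tested genes. Both pairs are compared with the same siNC library at each treatment, so that these values are not independent. Smad7 still rose with TGF-β under each siRNA, 2.31-fold with siNC, 2.42-fold with pair 1 and 1.86-fold with pair 2. The pairs went opposite ways for Pmepa1, at 71.9% and 76.3% of siNC with pair 1 and 127% and 172% with pair 2. The other tested members stayed between 70.7% and 177% of the matched siNC library, and Bambi, with at most 4 reads, is given no ratio.

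**Figure D5:**
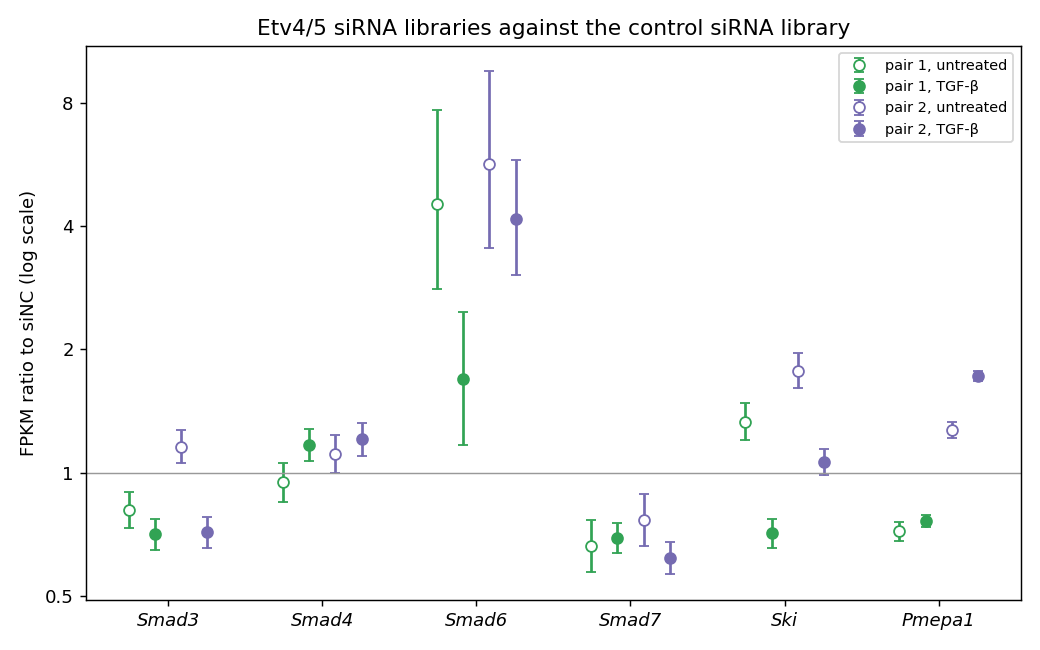
Ratio of FPKM in each Etv4/5 siRNA library to the siNC library of the same treatment, on a log scale, for the 6 tested genes whose reads could be read from the FPKM steps. Open points are untreated and filled points TGF-β, green is pair 1 and purple pair 2, and bars are exact binomial 95% intervals, which cover counting error only. Smad6 lies above 1 (1.69 to 5.66) and Smad7 below 1 (0.618 to 0.766) in all 4 comparisons.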

How the data were processed

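RNA from EpH4 and EpRas cells was sequenced directionally on the Ion Proton in 14 libraries, 8 untransfected and 6 transfected with siRNA. The authors deposited 2 tables of FPKM per gene and library from separate Cuffdiff runs, made from reads aligned to mm10. The submitters' processing notes name TopHat2 2.0.11, Bowtie2 2.2.2.2 and Cufflinks 2.2.0. The library scaling used in Cuffdiff is not given in the sources used here. The number of unused columns of values was 0.

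Genes without an OK status (3 and 2) and genes under 5 FPKM in every library of a table were left out, which kept 9100 and 9094 genes. limma 3.58.1 in R 4.3.3 was run on log2(FPKM + 1), with 4 group means in the untransfected table and with terms for TGF-β and for siRNA or knockdown in the siRNA table. The Benjamini-Hochberg adjustment ran over every tested gene of a table, with a threshold of 0.05. An exact permutation test of 2 against 2 libraries cannot give a two-sided p below 0.333 and was not used. Whole reads were read from the steps of FPKM, to within 0.05 reads, for 7 members, Smad3, Smad4, Smad6, Smad7, Ski, Pmepa1 and Bambi, and gave exact binomial intervals (Clopper-Pearson, 95%). Gene positions are from GENCODE vM21 (GRCm38, the assembly of mm10). Python 3.11.15 was used elsewhere.

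All 10 members are named whatever they show, as are Etv4 and Etv5 as the check of the knockdown. Of the pathway lists, up to 3 genes with the largest called change per comparison, or any needed to describe a list, could be named, and for Smad7, Skil and Pmepa1 the 3 genes most like them in pattern. Some genes of the lists are not reported here by name. The members and the lists of pathway genes were chosen with earlier results of these data known. The alternatives were other pseudocounts, filters and scaling, a variance trend, the replicate number as a block, the Tukey-Kramer test, fits of 2 groups only, and leaving out each library or siRNA pair.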

Additional observations from a re-analysis of the deposited data

Results flagged for a closer look

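Smad6 is the 1 member for which both EpH4 libraries with TGF-β lay above both untreated libraries (9.12 and 8.76 against 5.59 and 7.21 FPKM) while both EpRas libraries with TGF-β lay below both untreated ones (2.65 and 4.06 against 6.86 and 4.45 FPKM). Groups separated in opposite directions in the 2 lines for 4.63% of all tested genes, against 1 of 9 members. The effect of TGF-β in EpRas minus that in EpH4 was −1.04 on the log2(FPKM + 1) scale (SE 0.34) and did not pass after adjustment over all genes (adjusted p = 0.327, limma). Over 14 alternatives it stayed negative, between −1.31 and −0.64, with an adjusted p of 0.139 to 0.843.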

How the results depend on the processing

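The direction of every called change of a member was kept under every alternative in which that member was tested. The numbers of members called moved more. For TGF-β in EpRas, 2 members were called, and 1 under a pseudocount of 0.1 or 5 FPKM, a filter at a maximum of 1 FPKM, median scaling or the replicate block, in each case without Skil, whose adjusted p was then 0.0507 to 0.109 (limma). With only the 2 EpRas groups fitted, 0 were called, with 3 of 9 at an unadjusted p under 0.05, and of all 9100 genes 45 were called and 944 had such a p. For the untreated lines the replicate block left 0 in place of 1 (1 unadjusted). For the treated lines, 0 were called with a filter at a mean of 10 FPKM, which removes Smad6 (2 of 7 unadjusted), 2 with a pseudocount of 5 FPKM, where Pmepa1 was added, and 2 with the Tukey-Kramer test on FPKM, run on the members alone and unadjusted. That test also gave 5 calls in place of 4 for TGF-β in EpH4, where Smad3 was added as lower. A pseudocount of 5 FPKM added Tgif1 for TGF-β in the siRNA libraries (adjusted p = 0.0474, limma). Leaving out 1 library gave 1 to 4 calls for TGF-β in EpH4, 0 to 1 for TGF-β in EpRas, 0 to 1 for the untreated lines, 0 to 3 for the treated lines and 0 for the difference in response. The calls over all genes then ranged from 239 (without EpH4 TGF-β replicate 1) to 1085 in place of 855, 127 to 413 in place of 348, 733 to 2064 in place of 1598, 822 to 2384 in place of 1935, and 10 to 127 in place of 73, so the shares of all genes given beside the members move as well. Without siRNA pair 1 or without pair 2, 0 were called for TGF-β (4 of 9 unadjusted each), where fewer libraries were fitted and 6 and 24 of 9094 genes were called in place of 379. For the knockdown 0 members were called in these fits too, and 0 and 100 genes in place of 193.

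The replicate numbers did not pair the libraries (correlations of deviations −0.347 to 0.0785 over 6 pairs of groups). The lowest were −0.347 between the untreated and treated EpRas groups and −0.259 between the untreated groups of both lines. There the deviations tended to go opposite ways, which a block by replicate number does not cover. The part of this in the calls was not tested. Under the replicate block, Ski in EpH4 (adjusted p = 0.0818, limma) and in the untreated lines (0.0505) and Skil in EpRas (0.109) were no longer called, which left 3 members for TGF-β in EpH4, and no other call changed.

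Of 877 values of single members under alternatives, 801 kept their direction and side of the threshold, 47 lost and 6 gained a call and 23 changed direction, all of them for results not called. With 1 library left out, the log2 fold change for TGF-β in EpH4 ranged from −0.23 to 0.090 for Smad2, −0.096 to 0.15 for Smad4 and −0.17 to 0.45 for Tgif1, and that in EpRas from −0.029 to 0.13 for Ski and −0.065 to 0.31 for Smad4. For the untreated lines the ranges were −0.20 to 0.17 for Smad2 and −0.43 to 0.096 for Smad6, and for the treated lines −0.034 to 0.17 for Ski and −0.090 to 0.10 for Smad3. For the difference in response they were −0.094 to 0.28 for Smad4 and −0.073 to 0.55 for Tgif1. For TGF-β in the siRNA libraries, Smad3 turned to 0.10 without pair 2, and Smad4 to −0.0054 and Smad6 to 0.24 without pair 1. For the knockdown without pair 2, Pmepa1 turned to −0.43, Ski to −0.040 and Smad2 to −0.020. The causes were not tested.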
